A study of Homo sapiens with 8 samples.

Results

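HMGA2 and 6 further oncofetal or let-7 regulated genes (HMGA1, LIN28B, IGF2BP1, IGF2BP2, IGF2BP3 and DICER1) were followed in IGROV-1 tumours that grew in mice and received either saline or a CpG oligodeoxynucleotide. The members were all 13 probes of these 7 genes in the table of non-normalized signals, matched through the platform's gene symbols, out of 48797 probes on the array and 18852 genes named by a probe of 1 gene. The genes were chosen from results of this same contrast, HMGA2 for its difference between the groups and the others for their links to HMGA2 or let-7. The saline and CpG-ODN values of the members are therefore given as a description, with no test. Tests are given for other genes of the same pathways and for markers of cell types.

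IGROV-1 is an established human ovarian carcinoma line, here maintained by serial passage of ascitic cells in the peritoneal cavity of mice. Both groups carried the same tumour cells, and treatment began on day 10 to 11 after injection, when ascites was established. The CpG-ODN group (4 arrays) received the phosphorothioated oligodeoxynucleotide ODN1826 intraperitoneally at 20 µg per mouse, and the saline group (4 arrays) received saline. The labels give 2 schedules, 3 consecutive days or 1 time, but do not assign them to arrays, and the comparison pools them. Tumour cells that adhered to the peritoneal wall were collected 24 hours after the last treatment, from groups of 4 mice. The labels do not state that each array came from its own mouse. Errors and p-values therefore measure the spread between arrays, part of which may be technical. The mouse strain is not stated in the labels.

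let-7 is a family of microRNAs, short RNAs that pair through their seed with messenger RNAs and lower the amount of protein made from them. LIN28 proteins block the maturation of let-7 precursors, DICER1 cuts those precursors to the mature form, and HMGA2, HMGA1, LIN28B, DICER1 and the IGF2BP genes are known targets of let-7. In many tissues let-7 rises toward the end of development and these oncofetal genes fall, and several of them, HMGA2 above all, are expressed again in carcinomas, ovarian carcinoma included. Unmethylated CpG oligodeoxynucleotides are ligands of TLR9, an innate receptor of endosomes.

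The mature sequences of the family are shown because the family acts on its targets through 1 shared seed. They were taken from RefSeq (GRCh38.p14) and are written 5′ to 3′ with the seed, bases 2 to 8, in capitals.
let-7a: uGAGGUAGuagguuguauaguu
let-7b: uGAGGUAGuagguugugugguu
let-7c: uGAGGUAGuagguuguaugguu
let-7d: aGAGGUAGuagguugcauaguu
let-7e: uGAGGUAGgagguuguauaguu
let-7f: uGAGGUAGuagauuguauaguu
let-7g: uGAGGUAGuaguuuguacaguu
let-7i: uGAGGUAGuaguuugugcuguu
miR-98: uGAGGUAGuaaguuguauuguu
The 9 sequences of 22 bases came from 12 loci and shared 1 seed, and outside it they differed from let-7a at 1 base (let-7c, let-7e, let-7f), 2 bases (let-7b, let-7d, let-7g, miR-98) or 4 bases (let-7i). let-7a is encoded at 3 loci, chr9:94175962-94175983 on the plus strand, chr11:122146568-122146589 on the minus strand and chr22:46112752-46112773 on the plus strand. let-7f lies close to the first of them at chr9:94176353-94176374 (plus strand) and also at chrX:53557246-53557267 (minus strand), beside miR-98 at chrX:53556299-53556320 (minus strand). let-7d is encoded at chr9:94178841-94178862, let-7b at chr22:46113691-46113712, let-7c at chr21:16539838-16539859, let-7e at chr19:51692793-51692814 and let-7i at chr12:62603691-62603712, all on the plus strand, and let-7g at chr3:52268336-52268357 on the minus strand. Mature let-7 was not measured in the values analysed here. Of 15 let-7 precursor and host genes looked up, MIR99AHG alone had probes named for it, and none of its 3 probes was detected on any array.

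Signal was compared as deposited and as a normalized log2 signal, corrected for background and quantile normalized between arrays. A probe counts as detected on an array where the deposited detection p is under 0.05, and 18184 probes detected on at least 4 of the 8 arrays were tested. The mean non-normalized signal ran from 876 to 1079 on the saline arrays and from 806 to 1073 on the CpG-ODN arrays, and saline arrays detected more probes (18784 to 20114) than CpG-ODN arrays (18425 to 18570). Between the groups, 2322 probes were higher and 2521 lower at an adjusted p under 0.05 (limma, Benjamini-Hochberg), 12.8% and 13.9% of those tested. The groups did not overlap at 14.0% of the probes in the higher and 14.9% in the lower direction. The balance of the calls depended on the scaling: 47.9% of calls were higher as reported, 23.6% with median scaling over all probes (median difference of all tested probes -0.10 on the log2 scale) and 57.1% with median scaling over the tested probes (median 0.10).

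Of the 13 member probes, 6 probes of 5 genes passed the detection filter, and 1 of these lay wholly higher in the CpG-ODN arrays, 1 wholly lower and 4 overlapped, beside backgrounds of 14.0% and 14.9%. Because the members were chosen from this contrast, nothing is read from these counts. The other 7 probes had signals of 132 to 230 and were detected at 1 of 56 probe and array readings.

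**Figure D1:**
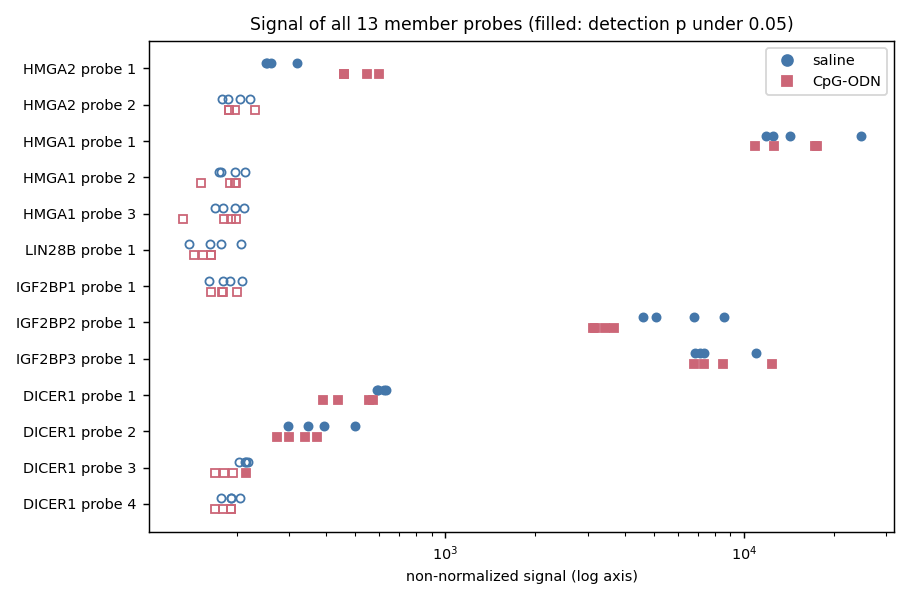
Non-normalized signal (log axis) of the 13 member probes on the 4 saline and 4 CpG-ODN arrays, with filled points for a detection p under 0.05. The 7 probes that did not pass the filter lie between 132 and 230, and the first HMGA2 probe is at 252 to 318 in saline and 458 to 598 in CpG-ODN.

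HMGA2, an architectural chromatin protein that binds AT-rich DNA and is abundant in embryonic and many tumour cells, had the widest gap among the members. Its probe ILMN_2344662 gave non-normalized signals of 318, 253, 252 and 260 on saline arrays 1 to 4. The same probe gave 546, 459, 598 and 458 on CpG-ODN arrays 1 to 4. Every CpG-ODN array was brighter than every saline array, and the probe was detected on all 8, with detection p from 0.00922 to 0.0158 on the saline arrays and of 0 on the CpG-ODN arrays.

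On the normalized log2 scale this HMGA2 probe read 6.72, 6.28, 6.28 and 6.47 in saline and 8.91, 8.29, 8.49 and 8.57 in CpG-ODN. The group means were 6.44 ± 0.21 and 8.56 ± 0.26 (SD, n = 4 each), a log2 difference of 2.13 ± 0.16 (SE), or 4.37-fold, with 1.57 between the highest saline and the lowest CpG-ODN array. It ranked 19 of 18184 probes from the highest difference, which is a description of how it was chosen. The saline signals lay close to background, and the size depended on the background step: the difference was 1.08 without background correction and 1.09 in the authors' second value table. The second HMGA2 probe, ILMN_1666236, ran from 179 to 230 and was not detected on any array, its lowest detection p being 0.0527 on CpG-ODN array 3. The HMGA2 difference therefore rests on 1 probe.

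HMGA1, the paralogue that binds the same kind of DNA and is found in many proliferating cells, was detected on all arrays by its probe ILMN_2311537. It read 14.35, 13.68, 13.82 and 13.62 in saline and 13.77, 14.13, 13.78 and 13.62 in CpG-ODN. The groups overlapped, with saline array 1 the highest of all 8, and the difference was -0.04 ± 0.18 (95% interval -0.45 to 0.36). The sign turned to 0.12 without saline replicate 1, to 0.03 without CpG-ODN replicate 4 and to 0.17 with median scaling over the tested probes. The other 2 HMGA1 probes, ILMN_1693560 and ILMN_1742699, were not detected on any array.

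LIN28B, the RNA-binding protein that holds let-7 precursors back from maturation, was not detected. Its probe ILMN_1748697 read 208, 163, 177 and 139 in saline and 164, 144, 165 and 154 in CpG-ODN, and the lowest detection p of the 8 was 0.273. These signals are background readings and give no order between the groups. The related gene LIN28A was detected on 1 of 8 arrays and did not pass the filter.

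The 3 IGF2BP genes encode RNA-binding proteins that hold target messenger RNAs, IGF2 and MYC among them, in stable particles. IGF2BP1 was not detected: its probe ILMN_1733807 read 181, 190, 161 and 209 in saline and 164, 179, 201 and 180 in CpG-ODN, with a lowest detection p of 0.0988. IGF2BP2, which is known from mouse embryos to be controlled by Hmga2, was detected on every array by ILMN_1702447.

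IGF2BP2 gave non-normalized signals of 8585, 5060, 6815 and 4597 on the saline arrays and 3170, 3132, 3681 and 3415 on the CpG-ODN arrays. On the normalized log2 scale it read 12.74, 12.33, 12.70 and 12.22 in saline and 11.82, 11.55, 11.45 and 11.99 in CpG-ODN. All CpG-ODN arrays lay lower than all saline arrays, with 0.23 between the nearest pair. The group means were 12.50 ± 0.26 and 11.70 ± 0.25 (SD, n = 4 each), a difference of -0.80 ± 0.17 (SE), or 1.74-fold lower in CpG-ODN. HMGA2 and IGF2BP2 thus lay on opposite sides of the saline level in the same arrays. IGF2BP2 had no other probe, so its difference too rests on 1 probe.

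IGF2BP3, the family member most often used as a carcinoma marker, read 13.11, 12.90, 12.78 and 12.85 in saline and 13.02, 13.06, 13.26 and 12.97 in CpG-ODN by ILMN_1807423. The groups overlapped and the difference was 0.17 ± 0.12 (95% interval -0.11 to 0.44), with 0.36 under median scaling over the tested probes. The 3 paralogues therefore showed one gene not detected, one lower without overlap and one overlapping. Neither the difference between IGF2BP2 and IGF2BP3 nor that between HMGA2 and HMGA1 was tested.

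DICER1, the ribonuclease that makes mature microRNAs, had 4 probes, of which 2 were detected on all arrays. ILMN_1772692 read 8.29, 8.81, 8.80 and 8.75 in saline and 8.43, 8.68, 8.39 and 8.18 in CpG-ODN, a difference of -0.24 ± 0.16 (95% interval -0.60 to 0.11). ILMN_2349831 read 7.91, 7.40, 7.70 and 6.99 in saline and 7.02, 7.54, 7.42 and 7.42 in CpG-ODN, a difference of -0.15 ± 0.20 (95% interval -0.60 to 0.30). The groups overlapped at both probes on this scale, although the non-normalized signals of ILMN_1772692 did not (589 to 636 in saline, 389 to 572 in CpG-ODN), and the array order within the saline group differed between them: saline array 1 was the lowest at the first and the highest at the second. ILMN_1686725 was detected on CpG-ODN array 4 alone (detection p 0.0487), and ILMN_1706100 was not detected.

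**Figure D2:**
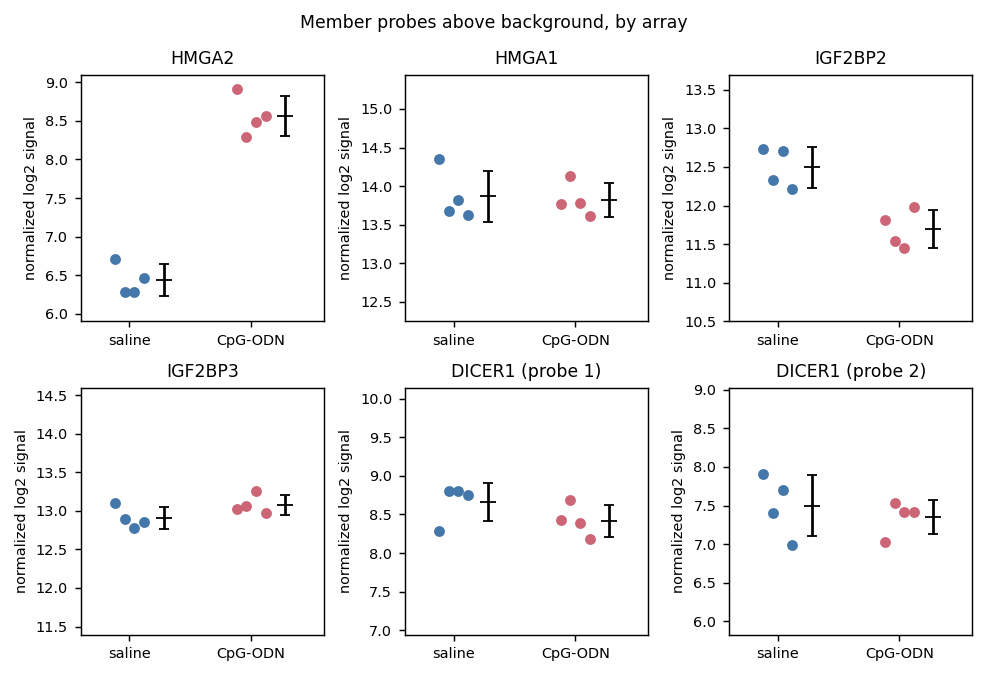
Normalized log2 signal of the 6 member probes that passed the detection filter, one point per array and panels of equal height. HMGA2 lies higher in all 4 CpG-ODN arrays, IGF2BP2 lower in all 4, and the groups overlap for HMGA1, IGF2BP3 and both DICER1 probes.

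The sign of the HMGA2 difference was positive and that of IGF2BP2 negative in the main setting and in all 17 alternatives. Looser detection filters, a trended robust fit and the replicate number as a block cannot change a probe's mean difference. Those alternatives returned the main values and say nothing about the sign. Leaving out 1 array at a time gave 2.03 to 2.22 for HMGA2 and -0.89 to -0.71 for IGF2BP2.

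**Figure D3:**
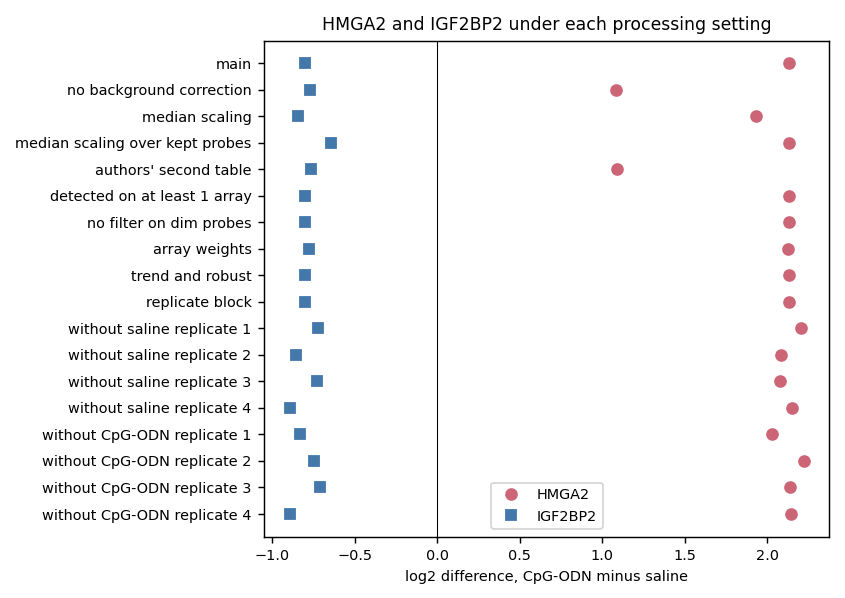
Log2 difference (CpG-ODN minus saline) of the HMGA2 and IGF2BP2 probes under each processing setting. HMGA2 stays on the positive side, at 1.08 to 2.22, and IGF2BP2 on the negative side, at -0.89 to -0.64.

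Among other known let-7 targets, more genes fell than rose. Of 48 listed genes 42 had a named probe and 30 passed the detection filter, each represented by its brightest such probe. In the CpG-ODN arrays 4 rose (13.3%), 9 fell (30.0%) and 17 did not pass the test, beside 12.9% and 16.3% of 11023 genes in the same directions, and the median difference was -0.30 against -0.01 over all genes. The list's median was -0.16 with median scaling over the tested probes, where 5 rose and 8 fell. It was -0.36 with median scaling over all probes and -0.13 with no detection filter. The list was drawn up with earlier results of these arrays known, and these shares are a description. The count of genes that fell was 4 without saline replicate 2 and 5 without CpG-ODN replicate 1. The count that rose was 2 without CpG-ODN replicate 4. There GALNT1 lost its call and the other STARD13 probe, which moved down, became the brighter one. That STARD13 probe was also the brighter one without CpG-ODN replicate 3.

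The let-7 targets that rose were led by STARD13, which read 6.33, 6.83, 6.23 and 6.65 in saline and 8.43, 8.75, 8.18 and 8.23 in CpG-ODN. The groups did not overlap and the difference was 1.89 ± 0.18 (limma adjusted p = 0.000107), or 0.94 without background correction. A second STARD13 probe, ILMN_2341254, moved the other way, by -1.01 ± 0.22 (limma adjusted p = 0.00669), so the gene has no single direction here. IRS2, an adaptor of insulin and IGF receptors, rose by 1.18 ± 0.19 (limma adjusted p = 0.00157), and every CpG-ODN array lay higher than every saline array. HRAS, a small GTPase of growth signalling, rose by 0.61 ± 0.15 (limma adjusted p = 0.0123), a call lost with median scaling over all probes, while its other probe gave -0.41 (limma adjusted p = 0.078). GALNT1, an enzyme of mucin-type glycosylation, rose by 0.37 (limma adjusted p = 0.036), a call lost under 11 of 17 alternatives, among them without any one saline array or CpG-ODN replicate 2, 3 or 4.

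Among the 9 let-7 targets that fell, EZH2, the methyltransferase of the Polycomb complex, fell by 0.64 ± 0.14 (limma adjusted p = 0.00748), with no overlap between groups. CDK6, a kinase of the G1 phase, read 8.22, 8.67, 7.97 and 7.41 in saline and 6.93, 7.49, 6.30 and 6.06 in CpG-ODN. It fell by 1.37 ± 0.33 (limma adjusted p = 0.0126), although CpG-ODN array 2 lay above saline array 4. The non-normalized CpG-ODN signals of CDK6 were low, at 225 to 334, and its difference was -0.66 without background correction. ARID3A, a DNA-binding partner of E2F factors, fell by 0.45 ± 0.12 (limma adjusted p = 0.0168), a call lost with median scaling over all probes.

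CCND2, the cyclin D2 partner of CDK6, fell by 0.93 ± 0.27 (limma adjusted p = 0.0285), a call lost without any one of CpG-ODN replicates 1 and 3 and saline replicates 2 and 3. CDC25A, a phosphatase that activates cyclin-dependent kinases, fell by 0.47 ± 0.14 (limma adjusted p = 0.0338), a call lost under 8 of 17 alternatives, among them without any one of CpG-ODN replicates 1, 2 and 4 and saline replicates 2, 3 and 4. The remaining genes that fell were RRM2, a ribonucleotide reductase subunit, by 0.78, E2F2 by 0.60, PLAGL2 by 0.58 and NAP1L1 by 0.37 (limma adjusted p = 0.0173, 0.0318, 0.0411 and 0.046). The groups overlapped for RRM2 and E2F2. The RRM2 call held under all 17 alternatives, while those of E2F2, PLAGL2 and NAP1L1 were lost under 7, 10 and 11, all 3 of them without saline replicate 2, saline replicate 4 or CpG-ODN replicate 1. MYC gave a difference of 0.27 (limma adjusted p = 0.397). TRIM71 and IGF1R did not pass the filter, and NRAS was not analysed here.

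Among 29 tested genes of microRNA processing and silencing, 2 rose (6.9%), 7 fell (24.1%) and 20 did not pass the test, beside 12.9% and 16.3% over all genes, with a median difference of -0.22. That median was -0.15 with median scaling over the tested probes and -0.35 with median scaling over all probes. The count that fell was 4 without saline replicate 3, and the count that rose was 1 whichever array was left out. AGO3, an Argonaute protein of the silencing complex, fell by 1.27 ± 0.22 at its brightest probe (limma adjusted p = 0.00249). That probe read 7.90, 7.83, 7.57 and 7.62 in saline and 7.0, 6.37, 6.64 and 5.83 in CpG-ODN. The other AGO3 probe rose by 1.27 ± 0.17 (limma adjusted p = 0.000538), from 6.12, 5.99, 6.02 and 6.39 to 7.09, 7.24, 7.50 and 7.77, so the AGO3 probes disagreed in direction.

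DDX17, an RNA helicase of the Microprocessor, fell by 1.21 ± 0.24 (limma adjusted p = 0.00432). TUT4, which adds uridines to let-7 precursors held by LIN28 proteins, read 8.35, 8.10, 8.30 and 7.97 in saline and 7.16, 7.86, 7.34 and 7.21 in CpG-ODN, and fell by 0.79 ± 0.17 (limma adjusted p = 0.00761). XPO5, which exports precursors from the nucleus, read 9.56, 9.48, 9.51 and 9.51 in saline and 9.08, 9.07, 8.93 and 9.22 in CpG-ODN, and fell by 0.44 ± 0.11 (limma adjusted p = 0.0148). The CpG-ODN arrays of TUT4 and XPO5 lay wholly lower than the saline arrays. SND1, TNRC6B and MOV10, all proteins of silencing complexes, fell by 0.44, 0.46 and 0.62 (limma adjusted p = 0.0247, 0.0249 and 0.0336). All 3 calls were lost without saline replicate 3 and with looser detection filters, and under 11, 6 and 8 of 17 alternatives in all, whereas those of AGO3 (at its brightest probe), DDX17, TUT4 and XPO5 held under all 17.

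PRKRA, a partner protein of DICER1, rose by 0.55 ± 0.13 (limma adjusted p = 0.0112), a call lost with median scaling over all probes. RAN, the GTPase of nuclear export, rose by 0.36 ± 0.12 (limma adjusted p = 0.0483), a call lost under 13 of 17 alternatives, among them leaving out any single array. The differences of DROSHA, the nuclear ribonuclease (-0.45, limma adjusted p = 0.0653), and of its partner DGCR8 (0.10, limma adjusted p = 0.679) did not pass the test. DROSHA passed under 6 of 17 alternatives. TARBP2, a second DICER1 partner, gave 0.07 (limma adjusted p = 0.699), and AGO2, the slicing Argonaute, gave -0.24 (limma adjusted p = 0.313). TUT7, the paralogue of TUT4, gave -0.52 (limma adjusted p = 0.225), and DIS3L2, which degrades uridylated let-7 precursors, gave -0.31 (limma adjusted p = 0.128).

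**Figure D4:**
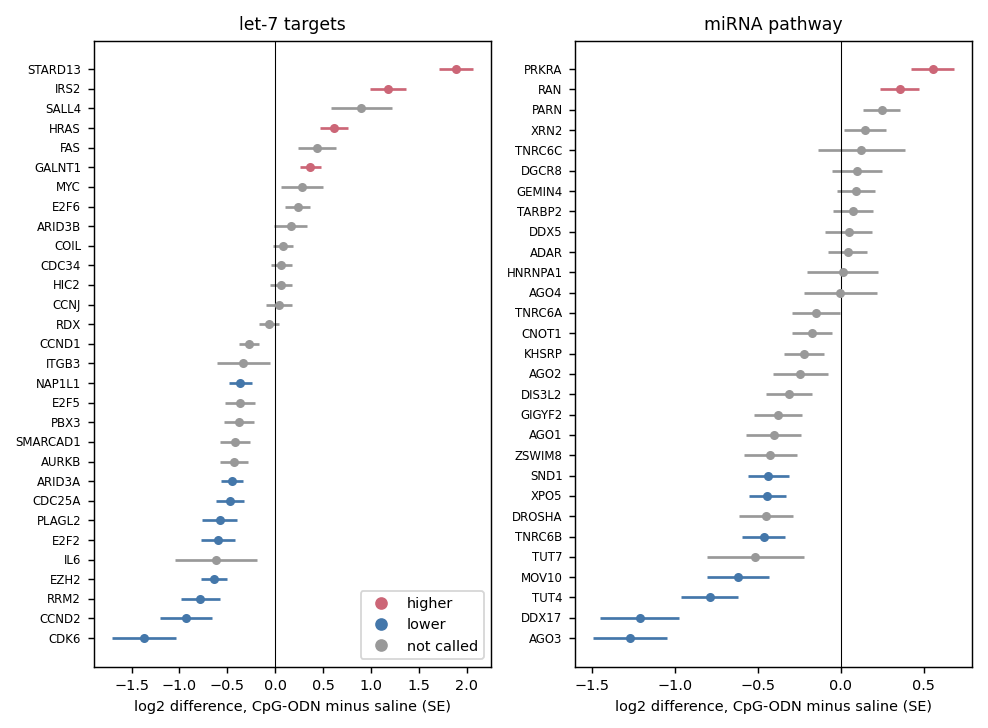
Log2 difference (CpG-ODN minus saline) with its SE for the tested let-7 targets and microRNA pathway genes, one gene per line and colour for higher, lower or not called. Among let-7 targets 4 of 30 genes rose and 9 fell, and among microRNA pathway genes 2 of 29 rose and 7 fell.

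Of genes linked to HMGA proteins, 13 were tested: 2 rose (15.4%), 1 fell (7.69%) and 10 did not pass the test, beside 12.9% and 16.3%. The median was -0.13, with 0.02 under median scaling over the tested probes, -0.07 without CpG-ODN replicate 3 and -0.21 without CpG-ODN replicate 4. PIK3R1, the regulatory subunit of PI3-kinase, rose by 0.66 ± 0.11 (limma adjusted p = 0.00219), a call lost with median scaling over all probes. TWIST1, a transcription factor of mesenchymal cells, rose by 0.47 ± 0.15 (limma adjusted p = 0.0459), a call lost under 10 of 17 alternatives, among them without any one CpG-ODN array or saline replicate 1 or 2. RB1, the retinoblastoma protein that HMGA2 is known to bind, fell by 0.44 ± 0.13 (limma adjusted p = 0.0264), a call lost under 8 of 17, among them without any one of CpG-ODN replicates 1, 2 and 4 and saline replicates 2 and 4. SNAI1, SNAI2, IGF2 and E2F1 did not pass the filter.

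Of other oncofetal genes and genes whose products work with IGF2BP proteins, 29 were tested: 2 rose (6.9%), 4 fell (13.8%) and 23 did not pass the test, beside 12.9% and 16.3%. The median was -0.05 and changed sign, to 0.05 with median scaling over the tested probes, 0.02 without saline replicate 1 and 0.03 without CpG-ODN replicate 4. The count that rose was 4 without CpG-ODN replicate 3 and 1 without any one of CpG-ODN replicates 1, 2 and 4 and saline replicates 2 and 4. METTL3, which writes the N6-methyladenosine mark that IGF2BP proteins read, read 10.06, 9.84, 9.89 and 10.15 in saline and 8.50, 8.48, 8.08 and 8.30 in CpG-ODN. The groups stood clear of each other and the difference was -1.65 ± 0.14 (limma adjusted p = 7.47e-05). ELAVL1, an RNA-binding protein that stabilizes messages, fell by 0.98 ± 0.16 (limma adjusted p = 0.00146), and MKI67, the proliferation marker, fell by 0.53 ± 0.13 (limma adjusted p = 0.0137).

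PABPC1, the poly(A)-binding protein, fell by 0.35 at its brightest probe (limma adjusted p = 0.0408), while its other probe gave 0.03. The PABPC1 call was lost under 13 of 17 alternatives, among them leaving out any single array. SYNCRIP, a component of IGF2BP1 particles, rose by 0.52 ± 0.13 (limma adjusted p = 0.0149), a call lost with median scaling over all probes. YTHDF1, another reader of the mark, rose by 0.44 ± 0.13 (limma adjusted p = 0.0307), a call lost under 10 of 17 alternatives, among them without any one of CpG-ODN replicates 1, 2 and 4 and saline replicates 2, 3 and 4. H19, an imprinted oncofetal RNA, gave -0.25 (limma adjusted p = 0.114), passed under 3 of 17 alternatives and gave -0.05 with median scaling over the tested probes. IGF2, AFP, DLK1 and PLAC1 did not pass the filter, nor did TLR9, which was detected on no array.

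The genes whose probes followed HMGA2 most closely were sought among 14578 tested probes of 1 gene. Pearson's r over the 8 arrays was highest for UBR3 (0.995), KAT14 (0.992), RAMAC (0.992), EXOSC9 (0.992) and FUT5 (0.991). UBR3, KAT14, RAMAC and EXOSC9 differed between groups by 0.87, 1.14, 1.01 and 1.07. FUT5 was not detected on the saline arrays and was at least 2.34-fold higher in CpG-ODN. The most opposed were KIF24 (r = -0.997), CUL4B (-0.996) and SH2D4A (-0.995). KIF24 was not detected on the CpG-ODN arrays and was at least 3.20-fold lower there. These r values and the differences of the genes they picked are a description: the arrays form 2 groups, 244 probes had an r above 0.95, and any gene that separates the groups scores high.

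A likeness that does not use the group difference was taken from each array's deviation from its group mean. It was highest for SHOX2 (r = 0.980), UBALD2 (0.968), IGFBP1 (0.955), COPS2 (0.954) and CASTOR1 (0.944), over 8 arrays. UBALD2 differed between groups by 0.56, IGFBP1 by 0.30 and COPS2 by 0.33. CASTOR1 differed by -0.80, opposite in sign to HMGA2. These 5 are the highest of 14578 probes, picked for this r, which is a description. SHOX2 was detected on 1 saline and 3 CpG-ODN arrays.

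**Figure D5:**
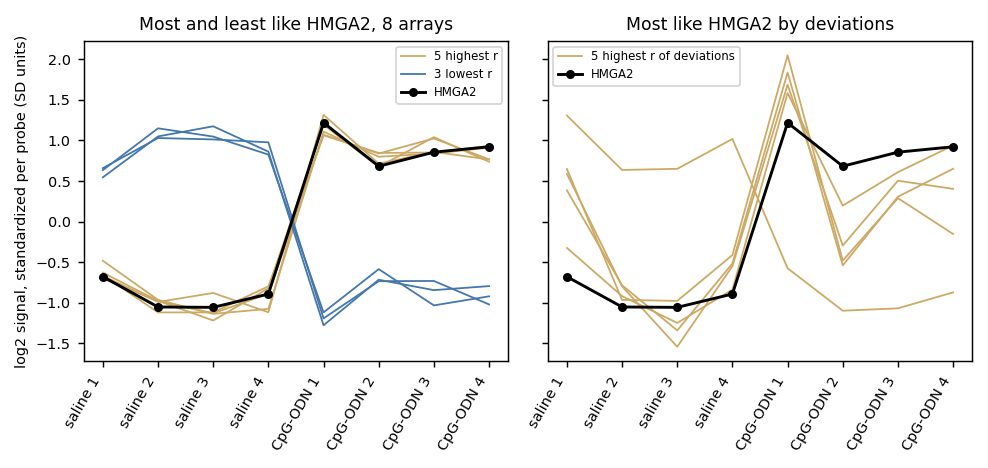
Log2 signal of the HMGA2 probe and of the probes most like it, standardized per probe in SD units, over the 4 saline and 4 CpG-ODN arrays. In the left panel the 5 probes with the highest r step up with HMGA2 in CpG-ODN and the 3 with the lowest r step down, and the right panel shows the 5 probes with the highest r of deviations from the group means.

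The arrays measured bulk RNA of the collected cells, so fewer cells of a type and less RNA per cell cannot be told apart. The tumour line was human, the probes were human and the host cells were those of a mouse. Marker signals are therefore not amounts of host fibroblasts, vessels or blood cells. Each marker sum in this section adds the normalized signal of all probes of the listed markers, undetected ones included. Of 12 epithelial and ovarian carcinoma markers 11 were detected (WT1 was not). The sums were 142386 to 164099 in saline and 145644 to 154065 in CpG-ODN. Of 8 fibroblast markers 4 were detected, while COL1A2, COL3A1, LUM and PDGFRB were not. The fibroblast sums did not overlap, at 2342 to 3015 in saline and 1421 to 1632 in CpG-ODN. Of the 4 detected, ACTA2, a contractile actin, fell by 1.15 ± 0.14 (limma adjusted p = 0.000344), while DCN (0.45), FAP (-0.17) and COL1A1 (-0.04) did not pass the test, and the median of the 4 was -0.11.

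Of 7 endothelial markers 4 were detected, with sums of 1081 to 1150 in saline and 1287 to 1628 in CpG-ODN, and CLDN5, KDR and TEK were not detected. VWF and CDH5 rose and the other 2, PECAM1 and ENG, did not pass the test. Of 10 macrophage markers 4 were detected, with overlapping sums of 7263 to 9924 and 9141 to 14117, and CD163, CSF1R, FCER1G, ITGAM, MRC1 and TYROBP were not. None of 9 lymphocyte markers was detected. Of 7 neutrophil markers 2 were detected (1018 to 1680 in saline, 1071 to 2134 in CpG-ODN), of 4 mesothelial markers 3 (1030 to 1282 and 1033 to 1245) and of 3 erythroid markers 1 (3295 to 10653 and 3216 to 13093). The fibroblast and endothelial sums and the number of detected probes moved with the groups, and their part in the HMGA2, IGF2BP2 or pathway differences was not tested. Whether mouse RNA from the host bound to any of the human probes was also not tested.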

How the data were processed

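One Illumina 1-colour bead array per sample measured RNA from 4 saline and 4 CpG-ODN samples. The signals are linear intensity values with no background subtracted, deposited by the authors per the file headers, beside a detection p-value per probe and array; the submitters' processing notes name BeadStudio with no version. A second deposited table of intensity values, of 48803 probes, ranks the probes of each array as the first does (lowest rank correlation 1.000); no source used here states its normalization, and it served as an alternative.

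Background was estimated from the detection p-values and the signals were quantile normalized and put on a log2 scale with limma 3.58.1 (neqc, offset 16; R 4.3.3). Probes with detection p under 0.05 on at least 4 arrays (18184 of 48797) were tested, two-sided, with lmFit and eBayes without covariates; p-values were adjusted by Benjamini-Hochberg over all of them at 0.05. The platform annotation gave 28093 probes 1 gene, 13 several and 20691 none. A gene of a list is represented by its brightest tested probe. A probe not detected on any array of a group is given as a bound. The fit and the adjustment of p-values were also run on simulated log2 values with known differences. Background correction, normalization and the detection filter were not tested in that way. The array number limits the precision, and no label or header gives a scan or slide batch.

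The members and gene lists were chosen with earlier results of these data known. Named genes were all member probes, the 3 called genes with the smallest adjusted p per list and direction, a fixed set of let-7 and microRNA genes (among them MYC, CDK6, DROSHA, TUT4 and TLR9), and the 5 highest, 3 lowest and 5 within-group r with HMGA2; other genes were named after their values were seen. Alternatives were no background correction, median scaling (over all probes or, added after seeing the data, over tested probes), the second table, looser detection filters, array weights, a trended robust fit, the replicate number as a block, the mean of a gene's probes, and leaving out each array. Per-sample columns left unused numbered 0. The let-7 sequences and coordinates came from RefSeq, and the members' own coordinates, promoters and proteins were not used here.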

Additional observations from a re-analysis of the deposited data

Results flagged for a closer look

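Within groups of 4 arrays, a single array stood far from the other three in 5 of 76 groups examined, by the ratio of its gap to the group's whole range (Dixon's ratio, above its 95% critical value). Chance flags about 1 in 20 groups. Among the members, the DICER1 probe ILMN_1772692 had saline array 1 lowest, at 8.29 against 8.75 for the nearest and 8.81 for the highest array, a ratio of 0.8945. In RB1, CpG-ODN array 3 was highest, at 8.0 against 7.81, a ratio of 0.9458. In TARBP2, CpG-ODN array 3 was lowest, at 8.67 against 8.93, a ratio of 0.8443. In CDC25A, CpG-ODN array 1 was lowest, at 8.16 against 8.49, a ratio of 0.8556. The mean non-normalized signal of saline array 1 was 1079 against 906 for the nearest saline array, a ratio of 0.8518.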

How the results depend on the processing

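Over the results recomputed, 222 values stayed close to the reported one and 55 moved, with counts taken as close within 1.5-fold. The 222 include member differences that looser filters, the trended robust fit and the replicate block cannot change. The tally is therefore no measure of stability. With median scaling over all probes, 3633 called probes counted as close to 4843, while those higher numbered 858 against 2322. The HMGA1 difference, near 0, changed sign under 3 of 17 alternatives. Without CpG-ODN replicate 3 or 4, STARD13 was represented by its other probe, which moved down. The HMGA2 difference was 1.08 without background correction and 1.09 in the second table, against 2.13. Leaving out single arrays gave 2.03 to 2.22, and -0.89 to -0.71 for IGF2BP2. Other differences also shrank without background correction, to 0.94 for STARD13, -0.66 for CDK6, -0.55 for AGO3, -0.40 for ELAVL1 and -0.38 for CCND2. HRAS changed little, to 0.56. Called probes numbered 3871 to 4288 with single arrays left out, against 4843 with all arrays. Probes without overlap numbered 5901 to 6182, against 5253. Groups with fewer arrays separate more easily, so this rise says nothing about stability. With single arrays left out, let-7 targets that rose numbered 2 to 4 and fell 4 to 9; microRNA pathway genes rose 1 and fell 4 to 7; HMGA-linked genes rose 1 to 2 and fell 0 to 1; oncofetal and IGF2BP-linked genes rose 1 to 4 and fell 3 to 4. With the mean of a gene's probes, 2 let-7 targets and 4 oncofetal genes rose. With median scaling over all probes, limma called 0 microRNA pathway and 0 HMGA-linked genes higher (1 and 1 at an unadjusted p under 0.05) and 1 oncofetal gene. With detection on at least 1 array, and with no filter, 1 microRNA pathway gene rose and 4 fell, 1 HMGA-linked gene rose and 0 fell (2 at an unadjusted p under 0.05 in limma), and 1 oncofetal gene rose. Array weights left 1 microRNA pathway gene higher. A trended robust fit gave 1 HMGA-linked gene higher and 2 lower, and 2 were lower without background correction and in the second table. The causes of these moves were not tested, and leaving out an array also lowers the number of arrays.

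With the replicate number as a block, 1839 probes were higher and 2115 lower, 1 microRNA pathway gene rose and 4 fell, 0 HMGA-linked genes fell (1 at an unadjusted p under 0.05 in limma) and 1 oncofetal gene rose. Same-numbered saline and CpG-ODN arrays correlated in their deviations at 0.0237, -0.0521, -0.268 and 0.0872, so the arrays share a number and are not treated as pairs.

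The limits are few arrays, 1 tested HMGA2 probe close to background in saline and 1 IGF2BP2 probe. Further limits are members not detected (LIN28B, IGF2BP1) whose level has an upper bound at background, and probes of a gene that disagree. The dosing schedules were unassigned and let-7 itself was not measured.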

Other observations

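Several genes of the lists carried probes that disagreed beyond the brightest one, which were looked at after the values were seen. MATR3, a nuclear matrix protein, gave 0.08 (limma adjusted p = 0.672) at its brightest probe and 1.52 (limma adjusted p = 0.00016) at another. ABCB1, a drug efflux pump whose message IGF2BP1 is known to bind, gave 0.28 (limma adjusted p = 0.273) and 0.86 (limma adjusted p = 0.00104). CNOT1, the scaffold of the deadenylase complex, gave -0.17 (limma adjusted p = 0.322) at its brightest probe and -0.79 (limma adjusted p = 0.0184) at another. ERCC1, a nucleotide excision repair gene reported as an HMGA2 target, gave -0.38 (limma adjusted p = 0.0796) and -0.60 (limma adjusted p = 0.0293). SALL4, an oncofetal transcription factor, was detected on 2 saline and 3 CpG-ODN arrays and gave 0.90 ± 0.32 (limma adjusted p = 0.0612).

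Among macrophage markers CD14 rose by 0.76 ± 0.19 (limma adjusted p = 0.0145) and CD68 by 0.65 ± 0.16 (limma adjusted p = 0.0158), while AIF1 fell by 1.09 ± 0.31 (limma adjusted p = 0.0277). The endothelial genes VWF and CDH5 rose by 1.02 and 0.63, the mesothelial gene UPK3B rose by 0.67 and LRRN4 fell by 0.40. The epithelial keratin gene KRT18 rose by 0.75. It alone was called among 11 tested epithelial and ovarian carcinoma markers, 10 were not called, and the median of the list was -0.06.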
